A study of Mus musculus with 11 samples.

Results

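The integrin and laminin genes described here are the 35 genes of the deposited count table whose names begin with Itga, Itgb, Lama, Lamb or Lamc and a digit, out of 24515 genes in all. They are 12 integrin alpha subunit genes, 9 integrin beta subunit genes, 3 genes of proteins that bind integrin beta tails and 11 laminin chain genes, held by 46 listed transcripts. Integrins named with a letter in place of the digit, such as Itgav and Itgam, fall outside this rule and were taken as a comparison list. The counts were made by RNA sequencing of 6 lung tumors and 5 adjacent normal lungs from 5 mice. The mice lacked Gprc5a, a retinoic acid-induced receptor gene of the lung epithelium, and had received NNK, a nitrosamine carcinogen of tobacco, at 50 mg/kg by injection, 3 times a week for 8 weeks. The deletion and the carcinogen were shared by tumors and normal lungs alike, and no wild-type or untreated lung was analysed here.

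The tumors carry the title tags ADN (3 tumors, of mice m335, m368 and m350) and ADC (3 tumors, of mice m335, m372 and m378), which the labels do not spell out and which are used as given. The 5 normal lungs came from the same mice. Tissue was taken 4 months after NNK in mouse m335, 6 months after it in mouse m368 and 7 months after it in the others. Since m335 was the source of 1 tumor of each kind and of a single normal lung, its tumors are not independent of each other.

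Laminins are basement membrane proteins built from an alpha, a beta and a gamma chain, and the gene of each chain is expressed in its own set of tissues. Lama3 and Lamb3 chains are found under epithelia, and Lama5 chains both under epithelia and in vessel walls. Lama4 chains are found in vessel walls and Lama2 chains around muscle and other mesenchymal cells. Integrins are cell surface receptors made of 1 alpha and 1 beta subunit, which bind laminins, collagens, proteins with an arginine-glycine-aspartate (RGD) motif or counter-receptors on other cells. In the lung, alveolar epithelium, capillary endothelium, fibroblasts and leukocytes each carry their own subunits.

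Total counts per library lay between 19938822 and 46987587, of which the ribosomal transcript Rn45s took between 7.29% and 19.2%. Gprc5a itself had between 0 and 19 counts in each library, at most 0.634 CPM, the count scaled to a common library size, on library totals. The alveolar type 2 cell markers summed to 34530 to 131453 CPM in tumors and 40160 to 54983 CPM in normal lungs, and the lowest tumor was the ADC tumor of m335. That tumor also had the highest sum of T and natural killer cell markers, 647 CPM, against 31.0 to 66.7 CPM in the other tumors and 140 to 459 CPM in normal lungs, highest in that of m372. The normal lung of m335 had the highest sum of skeletal muscle markers, 697 CPM, against 9.16 to 131 CPM in the other normal lungs. Levels below are CPM on TMM-scaled library sizes, a scaling by trimmed mean of M-values, and suit comparisons of 1 gene between libraries.

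A low count filter kept 15175 genes, and 33 of the 35 members were among them. Itgb8, which pairs with Itgav, had 0 to 6 counts in tumors and 1 to 12 counts in normal lungs, and Itgb2l, a mouse relative of Itgb2, had 0 to 14 and 1 to 12 counts, so both fell below the filter. Tumors and normal lungs were compared by edgeR's quasi-likelihood F test in a fit blocked on the mouse, two-sided, with Benjamini-Hochberg adjustment over all 15175 genes, and a gene was called at an adjusted p under 0.05. A log2 fold change is tumor over normal, with its standard error (SE).

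In tumors against normal lungs 15 of the 33 members were called, 3 higher and 12 lower. Of all genes tested 11.6% were called, 3.68% higher and 7.91% lower. Itga9 and Lamb3 were among the higher members. The median log2 fold change of the 33 members was -0.73, against -0.03 over all genes tested, and 27 members had a negative value. Of the members 10 were lower with no overlap between the tumor and normal libraries and 0 were higher without overlap, where such patterns were seen in 7.91% and 3.55% of all genes. With 1 library left out at a time, between 5 and 17 members were called. The 3 higher calls were all lost when any library of m368, m350, m372 or m378 was left out. Leaving out either library of such a mouse takes its pair out of the comparison, so the parts of its tumor and normal lung in such a loss cannot be told apart.

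**Figure D1:**
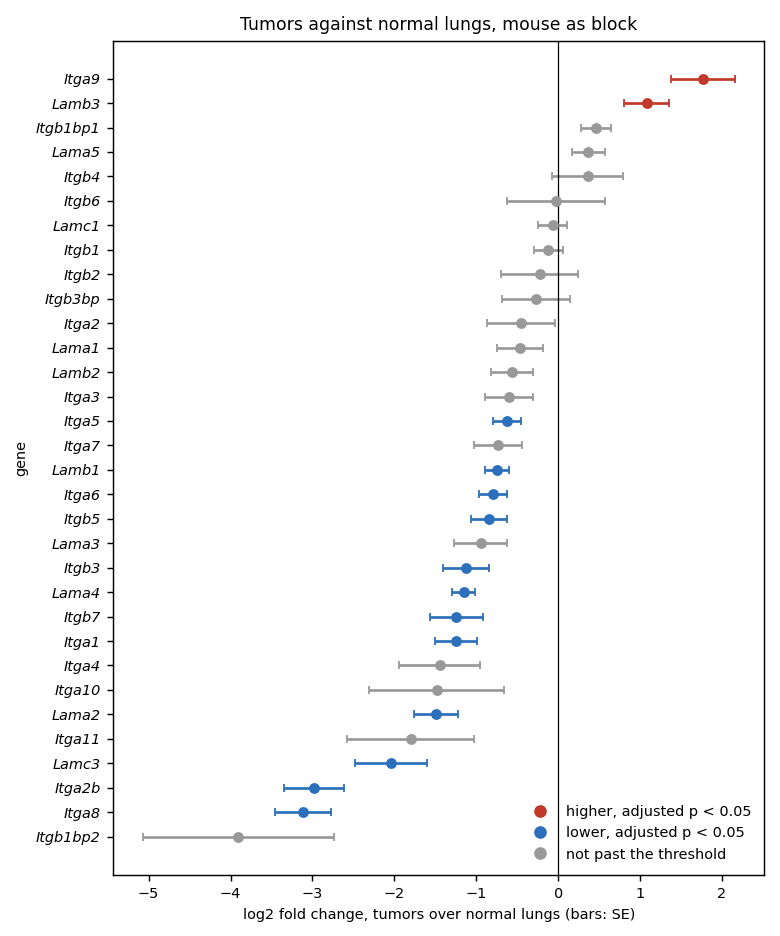
Log2 fold change of 32 tested members in 6 tumors over 5 normal lungs, with bars of 1 SE (edgeR, mouse as block). Red points are the 2 plotted genes called higher, blue points the 12 called lower and grey points the 18 not past an adjusted p of 0.05.

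The epithelial laminin chains Lamb3 and Lama3 parted in direction, with Lamb3 higher and Lama3 at a negative value that was not called. Lamb3 (chr1:193301994-193343878, plus strand), a beta chain of epithelial basement membranes, had 248, 222 and 169 CPM in the ADN tumors of m335, m368 and m350 and 244, 413 and 327 CPM in the ADC tumors of m335, m372 and m378. Its levels in the normal lungs of m335, m368, m350, m372 and m378 were 234, 89.2, 91.4, 126 and 88.8 CPM. The normal lung of m335 stood apart from the other 4 and overlapped the tumors, whereas those 4 lay below all tumors. Lamb3 rose by 1.08 ± 0.28 (adjusted p = 0.0394, edgeR) and was above the own normal lung in 6 of 6 tumors, by only 0.08 and 0.06 on the log2 scale in the tumors of m335. The call was kept in 3 of 11 fits with 1 library left out, those without a library of m335, with adjusted p from 0.00978 to 0.140. It was also lost on library totals without TMM (adjusted p = 0.0563).

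Lama3, an alpha chain of epithelial basement membranes, had 13.6, 13.3 and 34.6 CPM in the ADN tumors of m335, m368 and m350 and 38.5, 26.3 and 30.7 CPM in the ADC tumors of m335, m372 and m378. In the normal lungs of m335, m368, m350, m372 and m378 it had 57.3, 54.9, 40.1, 40.8 and 49.1 CPM. Every tumor lay below every normal lung. The log2 fold change was -0.95 ± 0.33 with an adjusted p of 0.102 in edgeR, 0.0360 in DESeq2 and 0.0358 without the ADC tumor of m335.

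The ratio of Lamb3 to Lama3 counts was 18.2, 16.7 and 4.89 in the ADN tumors of m335, m368 and m350 and 6.35, 15.7 and 10.7 in the ADC tumors of m335, m372 and m378, against 1.63 to 4.09 in normal lungs. It was above the normal range in 6 of 6 tumors. Per kilobase of transcript, which allows genes to be set side by side, Lamb3 was the highest beta chain in tumors, at a median of 61.1 CPM per kb. By the median it was second to Lamb2 in normal lungs, at 22.7 against 26.0 CPM per kb for Lamb2. In the normal lungs of m335 and m372 Lamb3 was above Lamb2, at 58.2 against 48.2 and 31.3 against 19.7 CPM per kb. In those of m368, m350 and m378 it was below, at 22.1, 22.7 and 22.0 against 22.3, 26.6 and 26.0 CPM per kb.

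The markers of basal cells, an airway cell type that lays down epithelial laminin, summed to 1.18 to 42.2 CPM in tumors and 3.85 to 17.1 CPM in normal lungs. Alveolar type 1 cell markers summed to 1842 to 3264 CPM in tumors and 2957 to 5347 CPM in normal lungs, and 3 of 7 were called lower. Of the alveolar type 2 cell markers 3 of 8 were called higher, with the sums given above. Over all genes tested 3.68% were called higher and 7.91% lower. The part of these cell types in the Lamb3 and Lama3 values was not tested.

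The 300-base windows around the 2 annotated starts of Lamb3 are shown because this gene was called higher and the windows could be searched for motifs. They are RefSeq sequences of GRCm38.p6, plus strand, at chr1:193301744-193302043 and chr1:193301993-193302292, each from 250 bases before to 50 bases after the start base. Capitals mark a match to the TEAD motif GGAATG, found here on the opposite strand as CATTCC. It begins 167 bases before the second start.
Lamb3 first start: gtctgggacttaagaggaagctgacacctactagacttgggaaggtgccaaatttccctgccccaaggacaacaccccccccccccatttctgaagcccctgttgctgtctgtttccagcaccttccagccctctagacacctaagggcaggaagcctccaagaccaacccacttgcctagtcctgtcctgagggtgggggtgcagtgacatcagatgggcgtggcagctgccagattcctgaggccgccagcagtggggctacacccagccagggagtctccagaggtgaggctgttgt
Lamb3 second start: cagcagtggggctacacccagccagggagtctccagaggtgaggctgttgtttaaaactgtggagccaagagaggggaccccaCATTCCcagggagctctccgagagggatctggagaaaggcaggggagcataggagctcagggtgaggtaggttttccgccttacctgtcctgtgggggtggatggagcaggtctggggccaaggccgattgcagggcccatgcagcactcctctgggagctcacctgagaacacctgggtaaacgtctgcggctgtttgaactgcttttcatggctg
The motifs searched on both strands were AP-1 (TGANTCA), TEAD (GGAATG), SP/KLF (GGGCGG) and ETS (CCGGAA), and no pair of these matches overlapped in the windows printed. Of 32851 RefSeq promoter windows of this length 7.81% held an AP-1 match, 14.7% a TEAD match, 35.7% an SP/KLF match and 14.9% an ETS match. Of 26 windows of 23 members, 2 held AP-1, 3 TEAD, 10 SP/KLF and 4 ETS matches. The first Lamb3 window held none of the 4 motifs.

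Of the other laminin chains Lama4, Lama2, Lamb1 and Lamc3 fell. Lama4 (chr10:38965515-39110188), the alpha chain of vessel and mesenchymal laminins, had 21.5, 17.1 and 16.6 CPM in the ADN tumors of m335, m368 and m350 and 23.7, 19.1 and 20.5 CPM in the ADC tumors of m335, m372 and m378. The normal lungs of m335, m368, m350, m372 and m378 had 43.7, 45.3, 41.4, 40.2 and 43.7 CPM. The groups were tight and did not overlap, and the highest tumor was far below the lowest normal lung. Lama4 fell by 1.16 ± 0.14 on the log2 scale (adjusted p = 0.00169, edgeR), and the call was kept in all 22 alternative settings. In the edgeR fit with 3 groups it also fell in ADN tumors (-1.26 ± 0.20, adjusted p = 0.0120) and in ADC tumors (-1.05 ± 0.20, adjusted p = 0.0224), each set against the same normal lungs. The ADN call was lost without the ADN tumor of m335 or m350 or the normal lung of m350 (adjusted p up to 0.103), and the ADC call was kept in 4 of 11 such fits (adjusted p up to 0.181), those without the normal lung of m335 or m368, the ADN tumor of m368 or the ADC tumor of m335.

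Lama2 (chr10:26981285-27616942), the alpha chain of muscle and mesenchymal basement membranes, had 11.4, 5.34 and 12.7 CPM in the ADN tumors of m335, m368 and m350. The ADC tumors of m335, m372 and m378 had 8.59, 11.5 and 6.67 CPM, and the normal lungs of m335, m368, m350, m372 and m378 had 30.8, 28.0, 20.3, 21.1 and 24.6 CPM. No tumor reached the lowest normal lung. Lama2 fell by 1.5 ± 0.27 (adjusted p = 0.00855, edgeR) and kept its call in all 22 alternatives. Lamb1 (chr12:31265294-31329639), a beta chain shared by many laminins, had 38.5, 27.0 and 27.2 CPM in the ADN tumors of m335, m368 and m350 and 45.5, 32.8 and 34.9 CPM in the ADC tumors of m335, m372 and m378. Its normal levels in m335, m368, m350, m372 and m378 were 66.1, 52.6, 51.7, 49.4 and 54.0 CPM, again without overlap. Lamb1 fell by 0.75 ± 0.14 (adjusted p = 0.0110, edgeR), and leaving out the normal lung of m350 ended the call (adjusted p = 0.0501). In ADN tumors it fell by 0.89 ± 0.18 (adjusted p = 0.0276), a call kept in 2 of 11 fits, those lacking the ADC tumor or the normal lung of m335 (adjusted p up to 0.167).

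Lamc3 (chr2:31887281-31946535), a low gamma chain, had 1.07, 2.55 and 13.9 CPM in the ADN tumors of m335, m368 and m350 and 1.08, 3.60 and 2.05 CPM in the ADC tumors of m335, m372 and m378. The normal lungs of m335, m368, m350, m372 and m378 had 11.0, 11.2, 15.1, 9.81 and 11.0 CPM. The ADN tumor of m350 was the exception, at the level of normal lungs, while the other 5 tumors lay below them. Lamc3 fell by 2.04 ± 0.44 (adjusted p = 0.0188, edgeR). The call was lost without the block (adjusted p = 0.112), without the normal lung of m335, m368 or m378, without the ADN tumor of m368 and without the ADC tumor of m378 (adjusted p up to 0.0749).

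Lamc1, Lama5, Lamb2 and Lama1 were not called. Lamc1, the gamma chain of most laminins, averaged 101 ± 18.8 CPM in tumors (SD, n = 6) and 103 ± 15.7 CPM in normal lungs (SD, n = 5), with a log2 fold change of -0.07 ± 0.18. Lama5, the main alpha chain of adult epithelial and vascular basement membranes, had 83.5 to 193 CPM in tumors and 78.9 to 166 CPM in normal lungs (0.37 ± 0.20, adjusted p = 0.290). It was the highest alpha chain per kilobase in both, with medians of 12.5 CPM per kb in tumors and 8.12 in normal lungs. Its share of all laminin alpha levels, per length, was 50.0% to 73.9% in tumors and 30.5% to 46.3% in normal lungs, with no overlap. The share depends on the other alpha chains too, and Lama2, Lama3 and Lama4 lay below every normal lung in all tumors. The Lama5 level itself overlapped between tumors and normal lungs. Lamb2, a beta chain of vessel and synaptic laminins, stood at -0.57 ± 0.26 (adjusted p = 0.199) and Lama1, mainly an embryonic alpha chain, at -0.46 ± 0.28 (adjusted p = 0.338). Highest by far among normal lungs in Lamb2 and Lama5 was that of m335, at 271 and 166 CPM.

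**Figure D2:**
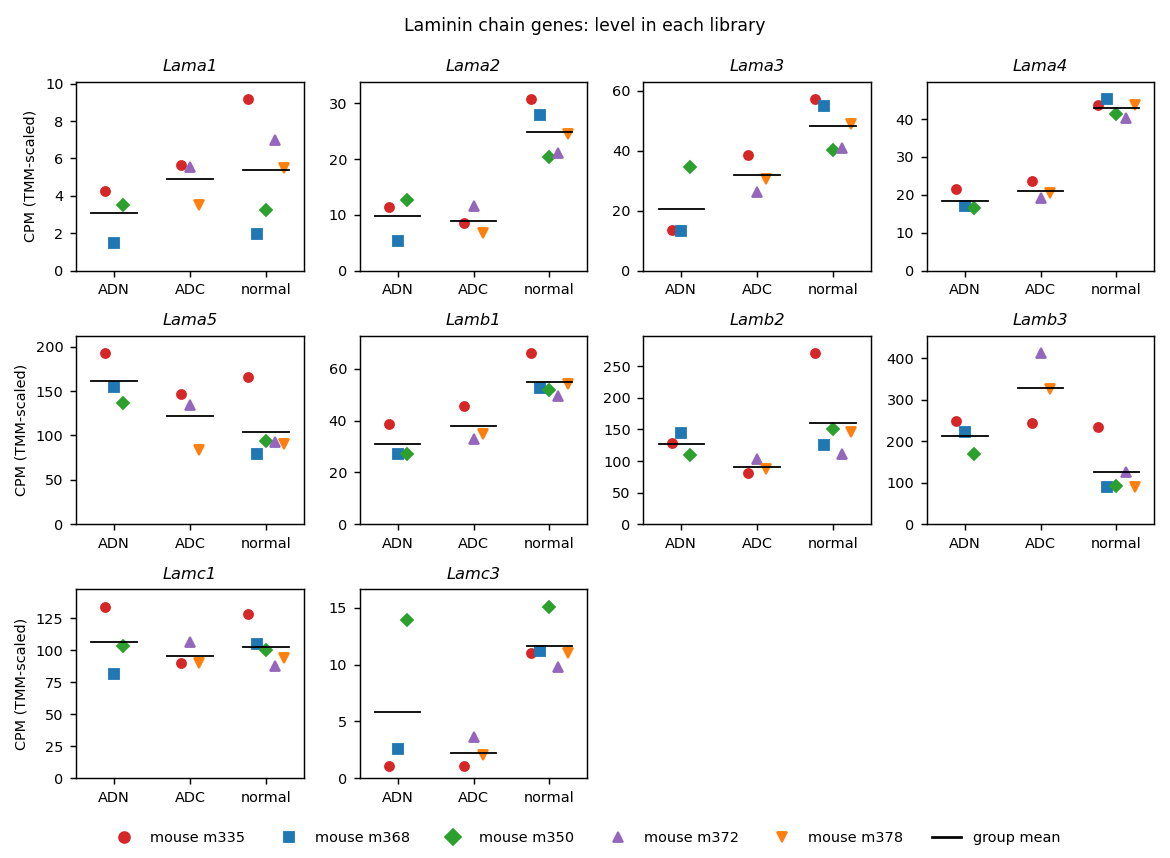
Level of 10 laminin chain genes in each library, in CPM on TMM-scaled library sizes, for ADN tumors, ADC tumors and normal lungs. Each symbol is 1 library, symbols and colors mark the mouse, and lines are group means. Lamb3 is at 169 to 413 CPM in tumors and at 88.8 to 234 CPM in normal lungs, while Lama2, Lama3, Lama4 and Lamb1 lie below every normal lung in all tumors.

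Among alpha subunits of laminin receptors, Itga6 fell and Itga3 and Itga7 were not called. Itga6 (chr2:71786939-71858427), which pairs with Itgb1 or, in hemidesmosomes, with Itgb4, had 56.4, 34.8 and 64.1 CPM in the ADN tumors of m335, m368 and m350 and 45.1, 62.0 and 59.2 CPM in the ADC tumors of m335, m372 and m378. Normal lungs of m335, m368, m350, m372 and m378 had 93.5, 85.3, 107, 87.9 and 86.2 CPM. All tumors were below all normal lungs. The fall was 0.80 ± 0.17 on the log2 scale (adjusted p = 0.0170, edgeR). It was no longer called without the normal lung of m335, m350 or m378, without the ADN tumor of m350 or without the ADC tumor of m378 (adjusted p up to 0.0684).

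Itgb4 (chr11:115974725-116008411), the partner of Itga6 in hemidesmosomes, had 41.3, 40.2 and 13.0 CPM in the ADN tumors of m335, m368 and m350 and 16.4, 10.7 and 7.78 CPM in the ADC tumors of m335, m372 and m378. In the normal lungs of m335, m368, m350, m372 and m378 it had 20.1, 10.2, 7.95, 18.5 and 12.0 CPM. Each ADN tumor was above its own normal lung, by 1.02, 1.92 and 0.68 on the log2 scale, and each ADC tumor was below its own, by -0.29, -0.76 and -0.59. The edgeR fit gave 1.18 ± 0.30 for ADN tumors over normal lungs (adjusted p = 0.0529), -0.51 ± 0.29 for ADC tumors over normal lungs (adjusted p = 0.403) and -1.69 ± 0.37 for ADC over ADN tumors (adjusted p = 0.700). DESeq2 called the difference of ADC from ADN tumors (-1.73, adjusted p = 0.0188). Galk1, which overlaps Itgb4 on the opposite strand, stood at 33.5 to 62.2 CPM in tumors and 27.9 to 44.7 CPM in normal lungs, and with no strand setting stated for the counting, reads of the pair may be counted for either.

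Itga3, the laminin receptor subunit of alveolar epithelium that pairs with Itgb1, had 111 to 311 CPM in tumors and 204 to 447 CPM in normal lungs (-0.60 ± 0.30, adjusted p = 0.239). Itga7, a laminin receptor subunit of muscle and other contractile cells, had 21.6 to 61.7 CPM in tumors and 34.1 to 116 CPM in normal lungs (-0.73 ± 0.29, adjusted p = 0.148). Itgb1, the common partner of most alpha subunits described here, was nearly level, at 369 ± 44.2 CPM in tumors (SD, n = 6) and 397 ± 52.5 CPM in normal lungs (SD, n = 5). Its log2 fold change was -0.12 ± 0.18 with an adjusted p of 0.727. Per kilobase Itgb1 was the highest beta subunit, with medians of 99.2 CPM per kb in tumors and 108 in normal lungs.

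The table lists 2 Itga7 transcripts, which differ in a coding exon of 132 or 120 bases, both multiples of 3. The exons are shown because the libraries differed in their use. The sequences are from GRCm38 with GENCODE M21 exon bounds, plus strand, at chr10:128941445-128941576 and chr10:128941822-128941941.
Itga7 132-base exon: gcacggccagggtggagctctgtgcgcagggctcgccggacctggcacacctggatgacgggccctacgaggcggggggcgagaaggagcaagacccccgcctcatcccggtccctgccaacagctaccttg
Itga7 120-base exon: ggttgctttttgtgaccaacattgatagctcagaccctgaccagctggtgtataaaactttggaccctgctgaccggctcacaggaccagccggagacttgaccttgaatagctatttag
The transcript with the 132-base exon held 62.5%, 61.4% and 60.8% of Itga7 counts in the ADN tumors of m335, m368 and m350 and 46.4%, 27.5% and 22.0% in the ADC tumors of m335, m372 and m378. Its share in the normal lungs of m335, m368, m350, m372 and m378 was 54.7%, 21.6%, 31.9%, 46.4% and 28.1%. The ADN tumors were close to each other and above all ADC tumors and normal lungs. The split between transcripts is the authors' estimate, its error is unknown, and the difference was not tested. Among the 10 members with more than 1 listed transcript, other splits varied widely too. The longer Itgb4 transcript held 45.1%, 6.7% and 96.6% of that gene's counts in the ADN tumors of m335, m368 and m350. The shorter Itga6 transcript held 32.7% to 73.5% of the Itga6 counts over all libraries.

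Of the collagen receptor subunits Itga1 fell, and Itga2, Itga10 and Itga11 were not called. Itga1 (chr13:114958081-115101964), a collagen receptor subunit of fibroblasts, smooth muscle and endothelium, had 17.7, 14.8 and 27.5 CPM in the ADN tumors of m335, m368 and m350 and 34.0, 19.8 and 23.2 CPM in the ADC tumors of m335, m372 and m378. In the normal lungs of m335, m368, m350, m372 and m378 its levels were 41.9, 65.3, 66.4, 41.9 and 53.9 CPM. No tumor overlapped the normal lungs. Itga1 fell by 1.25 ± 0.25 (adjusted p = 0.0146, edgeR), and by 1.65 ± 0.27 in ADN tumors (adjusted p = 0.0137). The first call was lost without either library of m378, the normal lung of m350 or its ADN tumor (adjusted p up to 0.0556), and the ADN call without any ADN tumor or the normal lung of m368 or m350 (adjusted p up to 0.125). Pelo lies inside Itga1 on the same strand, at 17.1 to 25.4 CPM in tumors and 18.2 to 35.9 CPM in normal lungs. Itga2, an epithelial and platelet collagen receptor subunit, had 2.05 to 16.0 CPM in tumors and 3.86 to 7.77 CPM in normal lungs and was not called. Itga10 and Itga11, collagen receptor subunits of cartilage and of fibroblasts, were at most 3.28 CPM in any library and were not called.

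The largest fall and the largest rise among the called members were both in integrin alpha subunits. Itga8 (chr2:12106634-12301944), an RGD-binding subunit of fibroblasts and smooth muscle whose ligand is nephronectin, had 19.7, 28.8 and 30.6 CPM in the ADN tumors of m335, m368 and m350. The ADC tumors of m335, m372 and m378 had 6.36, 16.5 and 16.2 CPM, and the normal lungs of m335, m368, m350, m372 and m378 had 192, 162, 167, 162 and 144 CPM. Every tumor was far below every normal lung, and the ADC tumor of m335 was lowest. Itga8 fell by 3.12 ± 0.34, a level 8.69-fold lower (adjusted p = 0.00105, edgeR), with -2.6 ± 0.36 in ADN tumors (adjusted p = 0.00975) and -3.74 ± 0.39 in ADC tumors (adjusted p = 0.00553). The calls over all tumors and in ADC tumors were kept in all 22 alternatives, and the ADN call was lost without the ADN tumor of m335 or m350 or the normal lung of m350 (adjusted p up to 0.103). The difference of ADC from ADN tumors was -1.14 ± 0.46 (adjusted p = 0.744). Npnt, the nephronectin gene, fell as well, by 1.42 ± 0.35 (adjusted p = 0.0312), with 94.9 to 346 CPM in tumors and 432 to 660 CPM in normal lungs.

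Beside the lower stromal and vascular members, the fibroblast markers summed to 491 to 1134 CPM in tumors and 1076 to 1856 CPM in normal lungs, and 4 of 8 were called lower. Endothelial markers summed to 642 to 1067 CPM in tumors and 3059 to 5042 CPM in normal lungs, and 9 of 10 were called lower. Smooth muscle and pericyte markers summed to 241 to 472 CPM in tumors and 515 to 957 CPM in normal lungs, with 3 of 9 called lower. Mesothelial cell markers summed to 30.6 to 87.8 CPM in tumors and 168 to 362 CPM in normal lungs, and 6 of 6 were called lower. Over all genes tested 7.91% were called lower. The part of these cell types in the falls of Itga8, Itga1, Lama2 and Lama4 was not tested. In bulk tissue fewer cells of a type and less RNA per cell cannot be told apart.

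Itga9 (chr9:118606709-118901003), a subunit that pairs with Itgb1 and binds tenascin, VCAM-1 and other ligands without the RGD motif, had 476, 1472 and 302 CPM in the ADN tumors of m335, m368 and m350. It had 126, 410 and 586 CPM in the ADC tumors of m335, m372 and m378. Normal lungs of m335, m368, m350, m372 and m378 had 128, 185, 118, 128 and 163 CPM. The ADN tumor of m368 was by far the highest library, and the ADC tumor of m335 was the only tumor within the normal range. Itga9 rose by 1.76 ± 0.39, a 3.40-fold higher level (adjusted p = 0.0215, edgeR), and was above the own normal lung in 5 of 6 tumors. The call was kept in 2 of 11 fits with 1 library left out, those lacking the ADC tumor or the normal lung of m335, with adjusted p from 0.000699 to 0.0746. In ADN tumors it rose by 2.25 ± 0.42 (adjusted p = 0.0212), a call lost without any ADN tumor or the normal lung of m368 or m350 (adjusted p up to 0.191). In ADC tumors the value was 1.17 ± 0.45 (adjusted p = 0.212), and the value for ADC over ADN tumors was -1.09 ± 0.57 (adjusted p = 0.778).

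Per kilobase Itga9 had medians of 175 CPM per kb in tumors and 54.9 in normal lungs, and Itga3 had 34.6 and 48.6 CPM per kb. These Itga9 values divide each listed transcript's counts by its own length, so they rest on the authors' split between a long and a short transcript, whose error is unknown. Itga3 was above Itga9 in the normal lung of m335, at 95.5 against 47.9 CPM per kb, and in that of m350, at 50.0 against 44.5 CPM per kb.

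The table splits Itga9 between a transcript of 28 exons (7020 bases in GENCODE M21) and a shorter one of 14 exons (1935 bases) that starts inside the gene with 1 exon of its own, of 125 bases. The shorter one held 73.3%, 92.5% and 49.5% of the Itga9 counts in the ADN tumors of m335, m368 and m350, and 74.5%, 61.3% and 68.9% in the ADC tumors of m335, m372 and m378. In the normal lungs of m335, m368, m350, m372 and m378 it held 61.7%, 69.2%, 62.3%, 76.5% and 65.2%. In the ADN tumor of m368 it had 1361 CPM of the 1472 CPM of the gene. The share was above the normal range in that tumor, below it in the ADN tumor of m350 and the ADC tumor of m372, and within it in the other 3. At most 1810 bases of the shorter transcript are shared with the longer one, so the split is an estimate of the authors' counting with an unknown error. The longer transcript had 127, 111 and 152 CPM in the ADN tumors and 32.1, 158 and 183 CPM in the ADC tumors, against 30.0 to 56.9 CPM in normal lungs, so that again 5 of 6 tumors were above the normal lungs.

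The window around the internal start is shown because most Itga9 counts were assigned to the transcript with an internal start. It is the RefSeq sequence of GRCm38.p6 at chr9:118711442-118711741, plus strand, from 250 bases before to 50 bases after the start base. Capitals mark its 1 match to the AP-1 motif TGANTCA, which begins 38 bases after the start base. RefSeq places this start 35 bases after the start of the 125-base GENCODE exon, so the match begins 73 bases after that exon's start.
Itga9 internal start: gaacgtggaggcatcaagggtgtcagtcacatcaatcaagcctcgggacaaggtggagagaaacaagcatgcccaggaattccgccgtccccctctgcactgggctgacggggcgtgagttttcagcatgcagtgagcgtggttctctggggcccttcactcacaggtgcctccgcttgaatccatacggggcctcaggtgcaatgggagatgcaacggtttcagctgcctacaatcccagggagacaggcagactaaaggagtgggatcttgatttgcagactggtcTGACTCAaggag
It held no TEAD, SP/KLF or ETS match. The window of the outer Itga9 start was not listed.

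**Figure D3:**
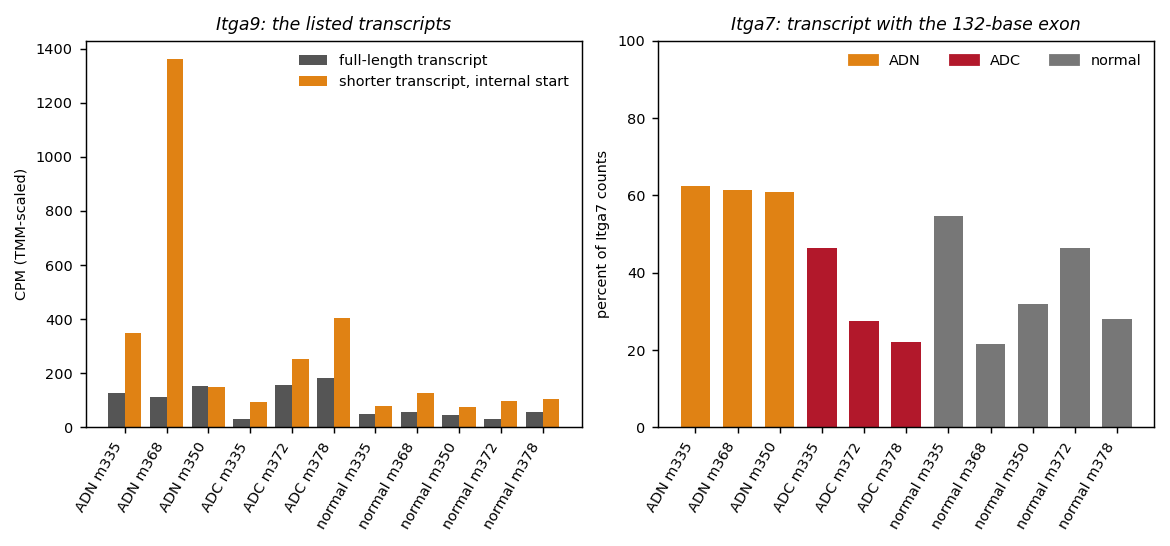
Left, the level of the full-length Itga9 transcript and of the shorter transcript with an internal start in each library, in CPM on TMM-scaled library sizes. Right, the percent of Itga7 counts assigned to the transcript with the 132-base exon. The ADN tumor of m368 has 1361 CPM of the shorter Itga9 transcript, and the 3 ADN tumors have 60.8% to 62.5% of the 132-base exon form of Itga7.

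Of the other RGD-binding subunits Itga2b, Itgb3, Itgb5 and Itga5 fell, and Itgb6 was not called. Itga2b (chr11:102453297-102469883), the alpha subunit of the platelet fibrinogen receptor, had 1.17, 1.92 and 4.36 CPM in the ADN tumors of m335, m368 and m350. The ADC tumors of m335, m372 and m378 had 3.01, 1.27 and 1.22 CPM, and the normal lungs of m335, m368, m350, m372 and m378 had 30.0, 8.17, 21, 10.8 and 11.5 CPM. Normal lungs varied among themselves, yet all lay above all tumors. Itga2b fell by 2.98 ± 0.37 (adjusted p = 0.00156, edgeR), and the call held in all 22 alternatives. In ADN tumors it fell by 2.99 ± 0.56 (adjusted p = 0.0200) and in ADC tumors by 2.98 ± 0.52 (adjusted p = 0.0185), against the same normal lungs. The ADN value moved to -2.18 and lost its call without the ADN tumor of m335 (adjusted p = 0.0888). It was also lost without the ADN tumor or the normal lung of m368 or m350 (adjusted p = 0.0508 to 0.0680). The ADC call ended when the normal lung of m335 or any library of m372 or m378 was left out (adjusted p up to 0.106).

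Of the platelet markers 6 of 8 tested were called lower, where 7.91% of all genes were, and Pf4 and Gp1ba were not. Pf4, which macrophages also express in mice, had 13.5 to 93.7 CPM in tumors and 10.9 to 22.9 CPM in normal lungs. The 9 markers in the table summed to 15.9 to 97.8 CPM in tumors and 42.2 to 84.2 CPM in normal lungs. Their part in the Itga2b result was not tested. Itgb3 (chr11:104608000-104670471), which pairs with Itga2b on platelets and with Itgav elsewhere, had 11.1, 12.4 and 11.6 CPM in the ADN tumors of m335, m368 and m350 and 29.5, 14.6 and 11.4 CPM in the ADC tumors of m335, m372 and m378. Across the normal lungs of m335, m368, m350, m372 and m378 it had 32.7, 28.2, 37.0, 25.7 and 30.0 CPM. The ADC tumor of m335 was within the normal range and the other 5 tumors were below it. Itgb3 fell by 1.13 ± 0.28 (adjusted p = 0.0336, edgeR), a call kept in 2 of 11 fits with 1 library left out, those without the ADN or the ADC tumor of m335 (adjusted p up to 0.117). In ADN tumors it fell by 1.60 ± 0.29 (adjusted p = 0.0193), a call lost without any ADN tumor or the normal lung of m368 or m350 (adjusted p up to 0.166).

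Itgb5 (chr16:33829665-33949338), an Itgav partner that binds vitronectin, had 68.3, 97.9 and 85.5 CPM in the ADN tumors of m335, m368 and m350 and 66.8, 81.2 and 100 CPM in the ADC tumors of m335, m372 and m378. Normal levels in m335, m368, m350, m372 and m378 were 214, 133, 150, 110 and 141 CPM, all above the tumors. Itgb5 fell by 0.84 ± 0.22 (adjusted p = 0.0395, edgeR), a call kept in 1 of 11 fits with 1 library left out, the one without the ADC tumor of m335 (adjusted p up to 0.114). Itga5 (chr15:103344286-103366791), the fibronectin receptor subunit, had 59.8, 71.2 and 37.6 CPM in the ADN tumors of m335, m368 and m350 and 62.8, 42.0 and 40.7 CPM in the ADC tumors of m335, m372 and m378. Among normal lungs, those of m335, m368, m350, m372 and m378 had 123, 73.3, 66.4, 60.8 and 61.3 CPM, so that the groups overlapped and the normal lung of m335 stood apart. Itga5 fell by 0.63 ± 0.17 (adjusted p = 0.0469, edgeR). The call was lost without the block (adjusted p = 0.140) and kept in 3 of 11 fits with 1 library left out, those without either library of m368 or the ADC tumor of m335 (adjusted p up to 0.167).

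Itgb6, an epithelial subunit that pairs with Itgav to activate latent transforming growth factor beta, had 106 CPM in the ADC tumor of m335. The other tumors had 13.2 to 29.2 CPM and the normal lungs 17.6 to 41.2 CPM. Its log2 fold change over all tumors was -0.03 ± 0.60 (adjusted p = 0.982).

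Leukocyte subunits were highest among tumors in the ADC tumor of m335. Itgb7 (chr15:102215995-102231935), which pairs with Itga4 or Itgae on lymphocytes, had 40.5, 26.3 and 31.1 CPM in the ADN tumors of m335, m368 and m350 and 110, 20.8 and 23.2 CPM in the ADC tumors of m335, m372 and m378. In the normal lungs of m335, m368, m350, m372 and m378 it had 89.7, 70.3, 96.0, 54.5 and 74.9 CPM. The ADC tumor of m335 was above all normal lungs and the other 5 tumors were below all of them. Itgb7 fell by 1.24 ± 0.32 (adjusted p = 0.0388, edgeR) and by 1.65 ± 0.37 in ADN tumors (adjusted p = 0.0370). Without the block both calls were lost (adjusted p = 0.171 and 0.131). With 1 library left out, the first was kept in 2 of 11 fits, those lacking the ADC tumor or the normal lung of m335 (adjusted p up to 0.135), and the ADN call in 4 of 11, those without the normal lung of m335 or m378 or the ADC tumor of m335 or m378 (adjusted p up to 0.232).

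Itga4, the partner of Itgb7 and Itgb1 on lymphocytes, had 18.5, 14.1 and 20.7 CPM in the ADN tumors of m335, m368 and m350 and 70.6, 9.39 and 11.0 CPM in the ADC tumors of m335, m372 and m378. Its normal levels in m335, m368, m350, m372 and m378 were 32.9, 56.1, 57.4, 40.7 and 47.8 CPM. It showed the same order as Itgb7, with 1 tumor above and 5 below the normal lungs. Its log2 fold change was -1.45 ± 0.50 with an adjusted p of 0.102 in edgeR and 0.0101 in DESeq2, and with 0.00116 in edgeR without the ADC tumor of m335.

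Itgb2 (chr10:77530348-77565674), the beta subunit shared by the leukocyte integrins Itgal, Itgam, Itgax and Itgad, had 42.5, 120 and 94.2 CPM in the ADN tumors of m335, m368 and m350 and 251, 87.1 and 164 CPM in the ADC tumors of m335, m372 and m378. In the normal lungs of m335, m368, m350, m372 and m378 it had 102, 304, 169, 75.3 and 154 CPM. Normal lungs spanned nearly the whole range, and each ADN tumor was below its own normal lung while each ADC tumor was above its own. On the log2 scale the ADN values of m335, m368 and m350 were -1.25, -1.34 and -0.84. The ADC value was 1.30 in m335 but only 0.21 in m372 and 0.095 in m378. Itgb2 fell by 1.30 ± 0.31 in ADN tumors (adjusted p = 0.0434, edgeR). That call was lost without the block (adjusted p = 0.268) and with the scaling of DESeq2 in edgeR (0.0525), and was kept in 1 of 11 fits with 1 library left out, the one without the ADC tumor of m335 (adjusted p up to 0.275). In ADC tumors it stood at 0.62 ± 0.29 (adjusted p = 0.306). The difference of ADC from ADN tumors was 1.93 ± 0.38, with an adjusted p of 0.627 in edgeR and 0.00219 in DESeq2.

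Beside these leukocyte values, T and natural killer cell markers summed to 647 CPM and B cell markers to 487 CPM in the ADC tumor of m335. In the other 5 tumors they summed to 31.0 to 66.7 CPM and 50.8 to 121 CPM, and in normal lungs to 140 to 459 CPM and 102 to 320 CPM. The 459 CPM were in the normal lung of m372, where thymocyte markers summed to 317 CPM, against 0.313 to 30.2 CPM in the other normal lungs. The other normal lungs had 140 to 252 CPM of T and natural killer cell markers. Macrophage markers summed to 28787 and 29324 CPM in the ADC tumors of m372 and m378, against 14237 and 14777 CPM in their normal lungs. In the ADC tumor of m335 they summed to 13307 CPM, against 14002 CPM in its normal lung. ADN tumors had 11263 to 18511 CPM of them and all normal lungs 14002 to 26358 CPM. Of the 7 macrophage markers 0 were called in tumors against normal lungs by edgeR. Alveolar type 2 cell markers summed to 34530, 122178 and 109396 CPM in the ADC tumors of m335, m372 and m378. In the normal lungs of m335, m372 and m378 they summed to 54983, 45631 and 40160 CPM. Neutrophil markers summed to 11.1 to 86.7 CPM in tumors and 56.9 to 470 CPM in normal lungs. The part of lymphocytes, macrophages and neutrophils in the Itga4, Itgb7 and Itgb2 values was not tested.

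**Figure D4:**
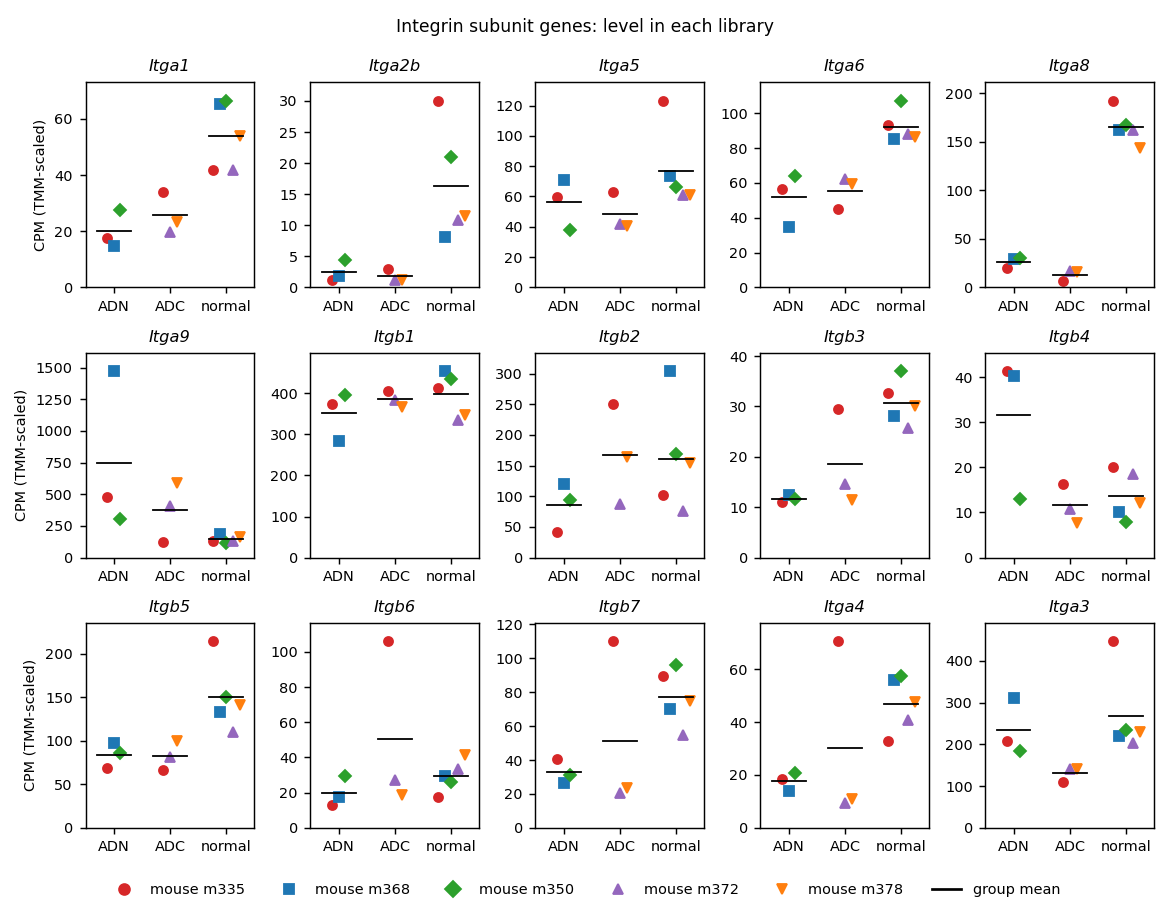
Level of 15 integrin subunit genes in each library, in CPM on TMM-scaled library sizes, for ADN tumors, ADC tumors and normal lungs. Each symbol is 1 library, symbols and colors mark the mouse, and lines are group means. Itga8 is at 6.36 to 30.6 CPM in tumors and 144 to 192 CPM in normal lungs, and the red circle of the ADC tumor of m335 stands apart in Itga4, Itgb3, Itgb6 and Itgb7.

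The genes of proteins that bind integrin tails were not called in the blocked edgeR fit. Itgb1bp1, which binds the Itgb1 tail and restrains its activation, had 31.8 to 52.5 CPM in tumors and 27.2 to 32.4 CPM in normal lungs (0.46 ± 0.18, adjusted p = 0.143 in edgeR, 0.0479 without the block). Asap2 overlaps it on the opposite strand. Itgb3bp, also known as a centromere protein, had 1.36 to 4.73 CPM in tumors and 1.93 to 4.45 CPM in normal lungs. Itgb1bp2, a striated muscle protein, had 0, 8 and 0 counts in the ADN tumors of m335, m368 and m350 and 0, 20 and 0 counts in the ADC tumors of m335, m372 and m378. The normal lungs of m335, m368, m350, m372 and m378 had 28, 22, 13, 41 and 26 counts. The fit gave an adjusted p of 0.0653 in edgeR and 0.0023 in DESeq2. Of the skeletal muscle markers 6 of 8 tested were called lower, where 7.91% of all genes were. All 9 listed summed to 2.41 to 8.60 CPM in tumors and 9.16 to 697 CPM in normal lungs. Heart muscle markers summed to 664 CPM in the ADC tumor of m372, which also had the most Itgb1bp2 counts among tumors. The same markers summed to 107 CPM in the ADC tumor of m378, which had 0 Itgb1bp2 counts. In normal lungs, with 13 to 41 Itgb1bp2 counts, they summed to 5.60 to 50.3 CPM. The part of muscle in the Itgb1bp2 counts was not tested.

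By kind of tumor, 10 of the 33 members were called in ADN tumors against normal lungs, 2 higher and 8 lower, where 7.53% of all genes were called (2.68% higher, 4.84% lower). In ADC tumors against normal lungs 3 were called, Itga2b, Itga8 and Lama4, all lower, where 4.99% of all genes were called (1.01% higher, 3.98% lower). The median log2 fold change of the members was -0.84 in ADN and -0.72 in ADC tumors, against -0.08 and 0.001 over all genes tested. The comparisons share the 5 normal lungs, so their values are not independent. In both, 14 members were lower and 2 higher with no overlap of libraries, where 14.5% (lower) and 9.34% (higher) of all genes were so in ADN tumors, and 13.2% (lower) and 8.90% (higher) in ADC tumors. Without the block the ADC count was 9 members, with Itga1, Itga3, Itgb5, Lama2, Itgb1bp1 and Lamb3 added (adjusted p from 0.0117 to 0.0499), and Itga6, Itgb5, Lama2 and Lama3 were added in ADN tumors (adjusted p from 0.0172 to 0.0457). DESeq2 gave 16 members in ADN tumors and 12 in ADC tumors. With 1 library left out the counts ranged from 0 to 14 in ADN tumors and from 1 to 7 in ADC tumors, with 0 in ADN tumors when the ADN tumor of m335 was left out, 14 in ADN and 7 in ADC tumors without the ADC tumor of m335, and 1 in ADC tumors without either library of m378.

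In ADC against ADN tumors 0 of the 33 members and 0% of all genes were called by edgeR. At an unadjusted p under 0.05 the edgeR fit held 6 members and 992 genes (6.54%). Among them were Itgb2, Itgb3 and Itga1 with positive values and Itgb4 and Itga8 with negative values. DESeq2 called 129 genes, among them 2 members, Itgb2 and Itgb4. The members' median was 0.07, against 0.04 over all genes tested.

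**Figure D5:**
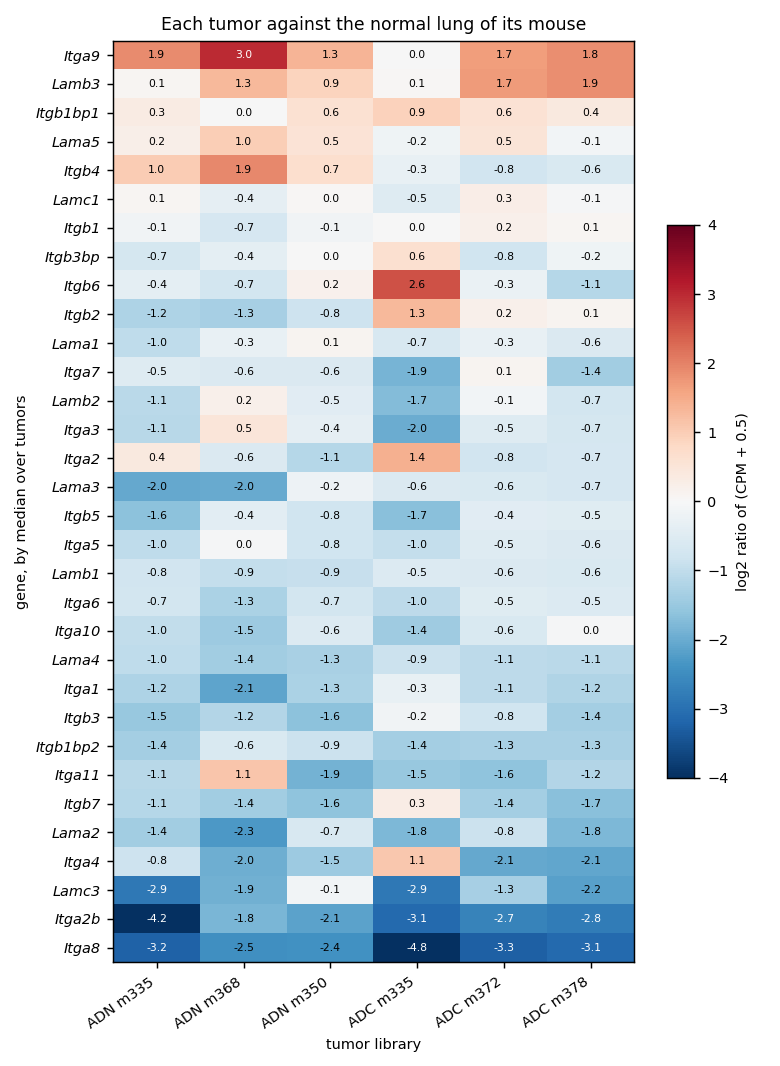
Log2 ratio of each tumor to the normal lung of its mouse, on the scale of CPM plus 0.5, for 32 tested members in order of their median. Red is higher and blue lower in the tumor. The column of the ADC tumor of m335 is near 0 for Itga9 and positive for Itgb6, Itgb2, Itga4 and Itga2, unlike most other tumors.

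Genes that work with integrins and laminins were taken from lists of the pathway. Of 6 integrins outside the rule 0 were called in tumors against normal lungs by edgeR, and Itgav, the partner of Itgb3, Itgb5, Itgb6 and Itgb8, had 19.6 to 125 CPM in tumors and 28.1 to 41.3 CPM in normal lungs (0.65 ± 0.40, adjusted p = 0.345). Of 18 basement membrane partners 1 was called higher and 3 lower, where 3.68% and 7.91% of all genes were. The list median was -0.53, against -0.03 over all genes tested. Col15a1, a collagen of basement membrane zones, rose by 1.5 ± 0.23 (adjusted p = 0.00374). Nid1, which links laminin to collagen IV, fell by 0.58 ± 0.16 (adjusted p = 0.0471), and Col4a6 and Npnt fell by 1.46 ± 0.38 and 1.42 ± 0.35.

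Of 18 integrin ligands tested 1 was called higher and 5 lower, where 3.68% and 7.91% of all genes were. The list median was -0.89, against -0.03 over all genes tested. Cdh1, the epithelial cadherin bound by Itgae, rose by 1.0 ± 0.18 (adjusted p = 0.00886). Vtn, the vitronectin gene, fell by 3.47 ± 0.47 (adjusted p = 0.00242). Lrrc32 and Ltbp1, which hold latent transforming growth factor beta, fell by 2.72 ± 0.34 and 1.85 ± 0.17, and Icam2, an endothelial ligand of leukocyte integrins, fell by 2.69 ± 0.16. The endothelial marker sums given above moved with these, and their part was not tested.

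In the adhesion complex list, of proteins that join integrin tails to actin, 0 of 27 were called higher and 7 lower, with a median of -0.25. Of all genes tested 3.68% were called higher and 7.91% lower. Actn1 was not called (0.995 ± 0.284, adjusted p = 0.0563, edgeR). Every tumor was above every normal lung in Actn1, a pattern seen in 3.55% of all genes tested. Its levels were 604 CPM in the ADN tumor of m368, 149 to 212 CPM in the other tumors and 102 to 119 CPM in normal lungs. The largest falls were those of Lims2 (-2.66 ± 0.37), Parvb (-1.95 ± 0.21), Tgfb1i1 (-1.39 ± 0.24) and Zyx (-1.19 ± 0.17), and Vcl, Fermt2 and Tns3 were also called. Talin genes Tln1 and Tln2 and the kinase gene Ptk2 were not among those called. Of 6 hemidesmosome and other laminin receptor genes 1 fell, Col17a1, at 0.0714 to 1.25 CPM in tumors and 2.88 to 5.63 CPM in normal lungs (-3.30 ± 0.59, adjusted p = 0.00842). Bcam, Dag1, Cd151, Plec and Dst were not called.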

How the data were processed

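RNA was measured by sequencing in 6 tumors and 5 normal lungs. The authors deposited 1 table of estimated counts for 36285 transcripts, not normalized. In each library 78.4% to 86.2% of gene sums were whole within 0.01. The submitters' processing notes name STAR 2.4.1d, Bowtie2 2.1.0, Partek and mm10, without their roles. The strand setting is not given in the sources used here.

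Expected counts, as deposited by the authors, were summed by gene name and rounded. Genes were kept with the default filterByExpr, which left 15175 genes holding 99.9% of counts. Depth sets the precision of low genes, and the number of libraries limits every test. Levels are CPM (counts scaled to a common library size) on TMM-scaled sizes. Tests used edgeR 4.0.16 in R 4.3.3 (robust quasi-likelihood, mouse as a fixed block), for all tumors and in a fit with 3 groups. SE is the size of the log2 fold change over the square root of F. The fit for all tumors was tried on simulated counts that held no difference between mice. The comparisons of the fit with 3 groups were not tried in this way. Log2 ratios to the own normal lung used a pseudocount of 0.5.

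Pairing comes from the mouse numbers in the labels. Deviations of tumor and own normal lung correlated at r = 0.356, 0.0582 and -0.0206 in the ADN tumors of m335, m368 and m350 and at -0.106, -0.0023 and 0.261 in the ADC tumors of m335, m372 and m378. In the blocked fits the differences are judged against the spread left between these libraries once mouse and group are fitted.

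Alternatives were no block, DESeq2 1.42.0, RLE factors, library totals, no filter, removal of Rn45s and hemoglobin genes, and leaving out each library or mouse. Members and lists were chosen with earlier results of these data known. Members called in any comparison were given in full, and of each list up to 4 called genes with the largest change were named. Other called or uncalled list genes that are named were chosen after their values were seen. Lengths are from GENCODE M21, and 45 of 46 member transcripts had one. The values of 1 member are not reported here, while counts and medians over the members include it.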

Additional observations from a re-analysis of the deposited data

Results flagged for a closer look

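In 16 of 66 groups of values the highest or lowest library lay farther from the rest than Dixon's limit (0.71 of the range for 5 libraries, 0.625 for 6). For independent, normally distributed values chance gives about 1 in 20. Here CPM were not log-transformed, tumors of both kinds were pooled and genes share libraries, so these rates cannot be compared. Of the 16 flags, 6 of 8 among normal lungs were in the normal lung of m335 and 4 of 8 among tumors in the ADC tumor of m335. The normal lung of m335 was highest in Itga3 (447 CPM), Itga5 (123 CPM), Lama5 (166 CPM), Lamb1 (66.1 CPM), Lamb2 (271 CPM) and Lamb3 (234 CPM). The ADC tumor of m335 was highest among tumors in Itga4 (70.6 CPM), Itgb3 (29.5 CPM), Itgb6 (106 CPM) and Itgb7 (110 CPM). The ADN tumor of m368 was highest in Itga9 (1472 CPM) and Itga11 (3.28 CPM) and lowest in Itgb1 (283 CPM). Lamc3 stood apart in the ADN tumor of m350 (13.9 CPM) and in the normal lung of m350 (15.1 CPM), and Itgb1bp2 in the normal lung of m372 (1.86 CPM).

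Itgb2 and Itgb4 differed from the own normal lung in opposite directions in ADC and ADN tumors. The mean log2 ratio of ADC minus that of ADN tumors was 1.68 for Itgb2 and -1.75 for Itgb4. For Itgb2 the ADC tumors of m372 and m378 were above their own normal lungs by only 0.21 and 0.095. The direct edgeR test of ADC against ADN tumors gave adjusted p of 0.627 for Itgb2 and 0.700 for Itgb4.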

How the results depend on the processing

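Of 1012 values of named member results under 22 alternatives, 754 kept direction and side of the threshold, 224 lost and 12 gained a call and 22 reversed. The causes of these changes were not tested. Without the replicate block, calls numbered 2242 genes in tumors (1759 with it), 1779 in ADN tumors (1142), 1546 in ADC tumors (757) and 3 between ADC and ADN tumors (0). Among members they numbered 13 in tumors, 12 in ADN and 9 in ADC tumors, and the members that changed side of the threshold stand beside their results. DESeq2 called 3286, 2931, 1858 and 129 genes and 19, 16, 12 and 2 members in the same order of comparisons. Library totals called 5 members in ADC tumors, and no filter called 5 genes between ADC and ADN tumors. Library totals moved the median log2 fold change of all genes by -0.19 in each comparison with normal lungs. Higher and lower calls were then 359 and 1714 in tumors (558 and 1201 with TMM). They were 332 and 1057 in ADN tumors (407 and 735) and 104 and 818 in ADC tumors (153 and 604). On TMM without the block, the split in ADC tumors was 549 and 997. On library totals the mean in normal lungs was 31.5 CPM for Itgb1bp1 (29.3) and 46.0 CPM for Lama4 (42.9).

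With a library or mouse left out, calls ranged from 917 to 3377 genes and 5 to 17 members in tumors, 0 to 1972 and 0 to 14 in ADN tumors, 65 to 1067 and 1 to 7 in ADC tumors, and 0 to 2 genes between ADC and ADN tumors. With a library or mouse left out, the log2 fold changes in tumors ranged from -0.196 to 0.006 for Itgb1, -0.583 to 0.036 for Itgb2, -0.009 to 0.635 for Itgb4, -0.499 to 0.266 for Itgb6 and -0.149 to 0.039 for Lamc1. Reversed values were 0.004 to 0.006 for Itgb1, 0.035 to 0.036 for Itgb2 and -0.009 to -0.007 for Itgb4, each without m368 or a library of it, 0.264 without the block and 0.039 to 0.266 with a library or mouse left out for Itgb6, and 0.039 without the ADC tumor of m335 and 0.016 without m335 for Lamc1.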
